A study of Homo sapiens with 8 samples.

Results

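HCT116 libraries with the replicate numbers 1 and 4 were set against those with the numbers 2 and 3. This is the split along which the 8 libraries varied most, and it is not the treatment. The libraries were chosen from the replicate numbers in the sample labels, 4 on each side out of 8 in all: hFGF19 1, hFGF19 4, control 1 and control 4 against hFGF19 2, hFGF19 3, control 2 and control 3. HCT116 cells are a widely used line derived from a human colorectal carcinoma. The hFGF19 libraries came from cells kept for 72 h with 100 ng/ml of human FGF19, an intestinal fibroblast growth factor that acts mainly on the receptor FGFR4, and the control libraries from cells without it, so each side held 2 libraries of each treatment. The labels say neither what a replicate number stands for nor whether libraries came from separate cultures, so any spread between them may be technical. The numbers 1 and 4 were joined because these expression values put them together. The difference between the sides is therefore given as a description without a test, and each gene's difference was estimated with treatment as a covariate.

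The amount of an mRNA that sequencing reports depends on transcription and decay, and also on how well fragments of a given length and base composition pass through library preparation. Messages of growing epithelial cells fall into classes with quite different sequence. Ribosomal protein and respiratory chain messages are short. Messages for DNA repair kinases, cohesin regulators and centrosome scaffolds are very long and rich in A and T. Immediate-early genes are switched on within minutes of growth factor signalling through the kinase ERK and make short-lived messages, and targets of YAP and TEAD respond to cell spreading and density.

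The 8 libraries held between 17121190 and 20752753 reads counted to genes. Replicates 1 and 4 averaged 19322662 ± 1362817 reads and replicates 2 and 3 averaged 18021670 ± 759839 reads (SD, n = 4 each), a difference within the spread of the libraries (exact permutation p = 0.2, two-sided; the smallest p that 4 against 4 allows is 0.0286). At a common depth of 17116027 reads, between 26089 and 27150 genes had a read in replicates 1 and 4, against 26603 to 27272 in replicates 2 and 3. Of 20 colon epithelium markers 6 reached a mean of 1 FPKM (a read count scaled to the length of the gene and the size of the library), with sums of 2023 to 2146 FPKM in replicates 1 and 4 and 2127 to 2222 FPKM in replicates 2 and 3. The sums of hepatocyte (6 of 14 markers at 1 FPKM), fibroblast (1 of 11) and endothelial markers (3 of 10) overlapped between the sides. Adipocyte markers (3 of 9) summed to 143 to 152 FPKM in replicates 1 and 4 and 155 to 173 FPKM in replicates 2 and 3 without overlap. FABP4 was at 0 throughout, and most of the sum was CFD, at 102 ± 3.49 FPKM in replicates 1 and 4 and 119 ± 7.11 FPKM in replicates 2 and 3 (SD, n = 4 each, as for every mean of a side below). Immune markers (2 of 14) summed to 7.03 to 8.37 FPKM in replicates 1 and 4 and 6.03 to 6.89 FPKM in replicates 2 and 3, again without overlap and with CD3E at 0. The text on RNA preparation in the labels mentions adipose tissue, although every sample is labelled as HCT116 cells. The part of other cells in the differences below was not tested.

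The first principal component over the 14100 genes that averaged 1 FPKM or more held 35.4% of the variance between libraries. Its scores were 14.9 for hFGF19 1, 5.88 for hFGF19 4, 11.6 for control 1 and 14.8 for control 4, against -6.73 for hFGF19 2, -18.2 for hFGF19 3, -15.2 for control 2 and -7.13 for control 3. Both treatments lay on each side of 0, with hFGF19 4 the closest to 0 on its side and hFGF19 3 the farthest on the other. The second and the third components held 13.2% and 12.9% of the variance.

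**Figure D1:**
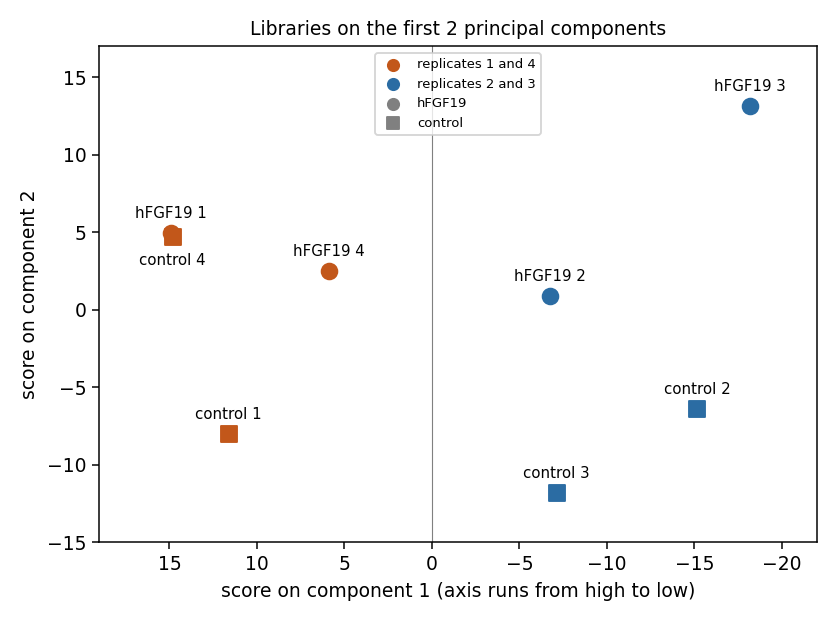
Scores of the 8 libraries on the first component (horizontal, high to low) and the second component (vertical); orange marks replicates 1 and 4, blue replicates 2 and 3, circles hFGF19 and squares control. The 4 orange libraries lie between 5.88 and 14.9 on the first component and the 4 blue ones between -18.2 and -6.73.

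Of the 14100 genes, 3202 (22.7%) did not overlap between the sides, meaning that all 4 libraries of one side lay above all 4 of the other. In replicates 1 and 4, 1588 of them (11.3%) were higher and 1614 (11.4%) were lower. These shares are what the choice of sides gives over all genes, and the counts of gene groups below stand beside them for reading only. Most differences were small. The median difference, replicates 1 and 4 minus replicates 2 and 3 on the log2(FPKM + 1) scale, was 0.22 among the higher and -0.28 among the lower genes. Large differences lay mostly on the lower side, where 151 genes differed by at least 0.5 on the log2 scale, against 19 on the higher side. Among all separated genes the range was -1.57 to 1.17. Within the 2 control libraries against 2, and the 2 hFGF19 libraries against 2, 4443 genes were separated in the same direction in both treatments and 332 in opposite directions. The numbers were joined from the values of both treatments. Agreement in direction is therefore part of that choice, and neither treatment serves as a repeat of the other. The last gene that passed the filter, LINC01534, had a mean of 1.00004 FPKM, and the first left out, listed as Novel00762, had 0.999959 FPKM.

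Among protein-coding genes that averaged 5 FPKM or more, the largest differences on the higher side were in PDIA4, FKBP9, CNN3, TNC and RASSF3. PDIA4, a disulfide isomerase that folds secreted proteins in the endoplasmic reticulum, stood at 153 and 118 FPKM in hFGF19 1 and 4 and 146 and 156 FPKM in control 1 and 4, against 100.4 and 83.1 FPKM in hFGF19 2 and 3 and 91.7 and 101 FPKM in control 2 and 3. All 4 libraries of replicates 1 and 4 exceeded the rest, and hFGF19 4 was the lowest of them. The difference was 0.60 (SE 0.081). FKBP9, another folding enzyme of the endoplasmic reticulum, averaged 47.0 ± 3.79 FPKM in replicates 1 and 4 and 32.0 ± 5.02 FPKM in replicates 2 and 3. CNN3, an actin-binding calponin, averaged 100.2 ± 14.8 FPKM in replicates 1 and 4 and 68.8 ± 6.16 FPKM in replicates 2 and 3. RASSF3, a Ras association domain protein, averaged 39.6 ± 6.29 FPKM in replicates 1 and 4 and 27.1 ± 3.10 FPKM in replicates 2 and 3.

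TNC, the matrix glycoprotein tenascin C, was at 46.3 and 44.0 FPKM in hFGF19 1 and 4 and 42.0 and 41.8 FPKM in control 1 and 4, against 34.2 and 27.8 FPKM in hFGF19 2 and 3 and 26.3 and 32.0 FPKM in control 2 and 3. All libraries of replicates 1 and 4 lay above the other 4, of which hFGF19 2 was the highest (difference 0.53, SE 0.072). Genes of nuclear proteins were also among the largest. ZC3H4, a zinc finger protein that restrains noncoding transcription, averaged 16.4 ± 0.575 FPKM in replicates 1 and 4 and 11.4 ± 1.66 FPKM in replicates 2 and 3. The bromodomain gene BRD3 averaged 33.3 ± 1.72 FPKM in replicates 1 and 4 and 23.8 ± 2.81 FPKM in replicates 2 and 3. MN1, a transcriptional co-regulator, averaged 22.6 ± 1.3 FPKM in replicates 1 and 4 and 16.1 ± 1.94 FPKM in replicates 2 and 3. RN7SL2, a 7SL RNA of the signal recognition particle, averaged 36.0 ± 3.35 FPKM in replicates 1 and 4 and 23.7 ± 3.15 FPKM in replicates 2 and 3, with near-identical copies that may share its reads.

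On the lower side, the protein-coding genes with the largest differences were NDUFV2, SMG1, NFAT5, DGKH and CLEC2D. SMG1, a kinase of nonsense-mediated mRNA decay, was at 119 and 146 FPKM in hFGF19 1 and 4 and 138 and 114 FPKM in control 1 and 4, against 193 and 223 FPKM in hFGF19 2 and 3 and 223 and 205 FPKM in control 2 and 3. Every library of replicates 1 and 4 lay below the other 4 (difference -0.71, SE 0.078), and reads may be shared with the SMG1 pseudogenes. NFAT5, the transcription factor of the osmotic stress response, averaged 26.8 ± 2.90 FPKM in replicates 1 and 4 and 44.1 ± 3.70 FPKM in replicates 2 and 3. DGKH, a diacylglycerol kinase, averaged 27.6 ± 4.56 FPKM in replicates 1 and 4 and 44.6 ± 0.624 FPKM in replicates 2 and 3. These differences, at -0.70 and -0.69, were larger in size than that of any of the higher genes above. NDUFV2, a subunit of respiratory complex I, averaged 5.85 ± 1.37 FPKM in replicates 1 and 4 and 10.9 ± 0.364 FPKM in replicates 2 and 3 (difference -0.82, SE 0.12). AP005899.1, a transcript antisense to NDUFV2, differed by -0.90 on the log2 scale. Since no strand setting is given in the sources used here, the reads of NDUFV2 and its antisense partner cannot be told apart.

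**Figure D2:**
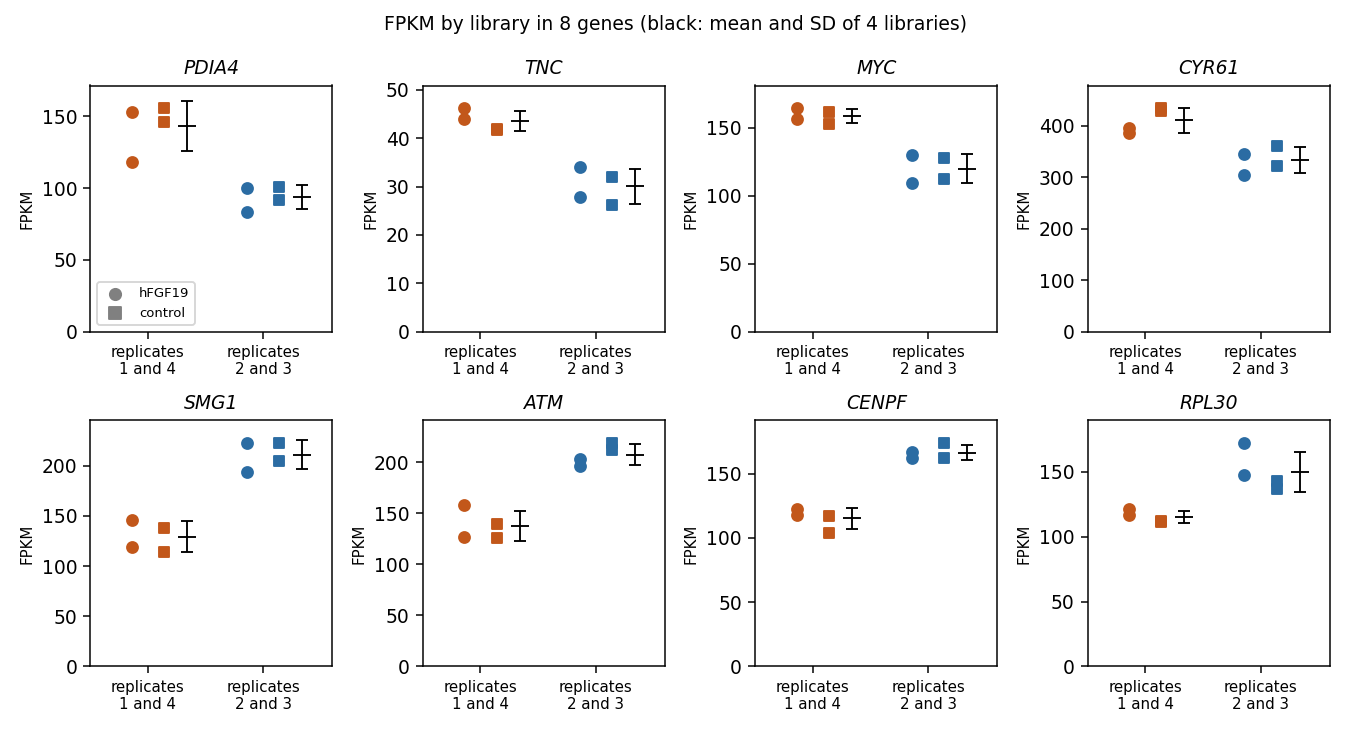
FPKM in each library for 4 genes that were higher in replicates 1 and 4 (PDIA4, TNC, MYC, CYR61) and 4 that were lower (SMG1, ATM, CENPF, RPL30); orange marks replicates 1 and 4, blue replicates 2 and 3, circles hFGF19 and squares control, with the mean and SD of 4 libraries in black. No library of one colour reaches into the other colour in these genes, for example 118 to 156 FPKM of PDIA4 in replicates 1 and 4 and 83.1 to 101 FPKM in replicates 2 and 3.

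Growth factor response genes leaned to higher levels in replicates 1 and 4. Of 39 immediate-early and ERK feedback genes 36 passed the filter, of which 16 were higher, 1 was lower and 33 had a difference above 0, with a median of 0.21 against -0.0098 over all genes. The transcription factor MYC was at 165 and 156 FPKM in hFGF19 1 and 4 and 162 and 153 FPKM in control 1 and 4, against 130.0 and 109 FPKM in hFGF19 2 and 3 and 112 and 128 FPKM in control 2 and 3. The lowest library of replicates 1 and 4 was thus above the highest of replicates 2 and 3 (difference 0.41, SE 0.059). FOS, a subunit of the factor AP-1, averaged 6.71 ± 0.466 FPKM in replicates 1 and 4 and 4.89 ± 0.714 FPKM in replicates 2 and 3. EGR1, an early zinc finger factor, averaged 4.52 ± 0.426 FPKM in replicates 1 and 4 and 3.29 ± 0.314 FPKM in replicates 2 and 3. The list also holds brakes on ERK signalling. The phosphatase gene DUSP4 averaged 68.5 ± 1.48 FPKM in replicates 1 and 4 and 58.4 ± 2.53 FPKM in replicates 2 and 3. SPRY2, an inhibitor of receptor tyrosine kinase signalling, averaged 20.5 ± 1.12 FPKM in replicates 1 and 4 and 16.95 ± 0.423 FPKM in replicates 2 and 3. SPRED1, another inhibitor of the pathway, was the single lower member, with a difference of -0.15.

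SRF, serum response factor, binds the CArG box and was itself higher, at 17.7 ± 0.561 FPKM in replicates 1 and 4 and 14.9 ± 1.5 FPKM in replicates 2 and 3. The 250 bases before the starts of EGR1 (chr5:138465229-138465478, plus strand) and SRF (chr6:43171019-43171268, plus strand) are shown because both genes were higher and both hold CArG boxes, in capitals. They are from RefSeq, build GRCh38.p14, and read in the direction of transcription.
EGR1: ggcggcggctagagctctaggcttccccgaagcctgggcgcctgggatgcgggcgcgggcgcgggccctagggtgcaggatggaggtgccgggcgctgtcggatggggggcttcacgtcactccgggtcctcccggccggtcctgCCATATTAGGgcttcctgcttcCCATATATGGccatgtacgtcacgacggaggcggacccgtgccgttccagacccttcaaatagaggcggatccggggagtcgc
SRF: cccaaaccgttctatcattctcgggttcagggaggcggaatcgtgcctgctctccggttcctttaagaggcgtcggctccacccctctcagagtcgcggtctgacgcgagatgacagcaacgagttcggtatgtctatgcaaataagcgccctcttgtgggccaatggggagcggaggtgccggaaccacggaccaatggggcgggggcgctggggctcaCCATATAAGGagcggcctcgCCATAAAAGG
Each of the windows holds 2 boxes. Among 35116 promoters of the same 250 bases 1.16% hold a CArG box, and among the 26 list members matched to a promoter these 2 (7.69%) do. The first share counts promoters and the second counts genes, so they are not directly comparable. A match describes the letters and does not show binding.

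Targets of YAP and TEAD, of Wnt and of Notch signalling were also more often higher than lower. Of 22 YAP and TEAD targets that passed the filter (23 listed) 11 were higher and 1 was lower, with a median of 0.20. LATS2, a kinase that restrains YAP, averaged 26.6 ± 0.851 FPKM in replicates 1 and 4 and 20.4 ± 1.95 FPKM in replicates 2 and 3. CYR61, a secreted matricellular protein, was at 395 and 385 FPKM in hFGF19 1 and 4 and 428 and 435 FPKM in control 1 and 4, against 346 and 304 FPKM in hFGF19 2 and 3 and 323 and 361 FPKM in control 2 and 3. The sides were apart for CYR61 in both treatments (difference 0.30, SE 0.051). AXL, a receptor tyrosine kinase, averaged 67.7 ± 3.05 FPKM in replicates 1 and 4 and 53.3 ± 5.29 FPKM in replicates 2 and 3. RBMS3 was the lower member, with a difference of -0.33. Of 17 Wnt targets (25 listed) 6 were higher and 0 lower, with a median of 0.22. MYC and CYR61 stand in more than 1 of these lists, MYC among the Wnt targets and CYR61 among the immediate-early genes. SOX9, a factor of intestinal progenitors, averaged 14.1 ± 1.42 FPKM in replicates 1 and 4 and 10.6 ± 1.20 FPKM in replicates 2 and 3. ZNRF3, a ligase that removes Wnt receptors, averaged 11.1 ± 1.13 FPKM in replicates 1 and 4 and 8.47 ± 0.473 FPKM in replicates 2 and 3. Of 17 Notch pathway genes (21 listed) 5 were higher and 1 was lower, with a median of 0.12. The ligand JAG1 averaged 111.0 ± 5.94 FPKM in replicates 1 and 4 and 84.7 ± 6.61 FPKM in replicates 2 and 3. The receptor NOTCH2 averaged 113 ± 6.57 FPKM in replicates 1 and 4 and 90.1 ± 6.06 FPKM in replicates 2 and 3.

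Matrix and integrin genes divided between the directions. All 35 listed passed the filter, with 12 higher, 6 lower and a median of 0.15. Beside TNC, the higher ones included COL4A1, a basement membrane collagen, at 271 ± 15 FPKM in replicates 1 and 4 and 208 ± 15.5 FPKM in replicates 2 and 3. SDC4, a heparan sulfate proteoglycan of focal adhesions, averaged 14.9 ± 1.31 FPKM in replicates 1 and 4 and 11.2 ± 0.662 FPKM in replicates 2 and 3. The lower ones were the integrin chains ITGA1, ITGA2, ITGAV, ITGB6 and ITGB8 and the collagen COL12A1, whereas ITGA3, ITGA5 and ITGB5 were higher. ITGB8 averaged 8.27 ± 1.13 FPKM in replicates 1 and 4 and 12.4 ± 0.594 FPKM in replicates 2 and 3, and ITGAV averaged 176 ± 10.7 FPKM in replicates 1 and 4 and 217 ± 13.5 FPKM in replicates 2 and 3. The 12 higher members had a median transcript GC content of 59.4% and the 6 lower ones of 39.4%, with no overlap between 48.8% to 67.5% and 37.8% to 46.3%. Of 37 NF-kB targets that passed the filter (41 listed), 30 had a difference above 0 (median 0.12), and 2 were higher and 0 lower without overlap. Members such as CXCL1 and CXCL8 were called for hFGF19, and a treatment effect makes sides that pool both treatments likelier to overlap. Within each treatment, 10 of the 37 were higher and 3 lower without overlap, against 15.5% and 16% of all genes. TNFAIP3, an inhibitor of NF-kB, averaged 24.2 ± 2.05 FPKM in replicates 1 and 4 and 19.98 ± 1.28 FPKM in replicates 2 and 3.

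Unfolded protein response genes, which expand protein folding in the endoplasmic reticulum, had 8 members higher and 4 lower among 22 tested of 22 listed, with a median of 0.073. Besides PDIA4, the chaperone HYOU1 averaged 299 ± 11.2 FPKM in replicates 1 and 4 and 234 ± 14.7 FPKM in replicates 2 and 3. SYVN1, a ligase that clears misfolded proteins, averaged 96.3 ± 1.38 FPKM in replicates 1 and 4 and 76.3 ± 6.59 FPKM in replicates 2 and 3. The main chaperone HSPA5 differed little, at 267 and 261 FPKM in hFGF19 1 and 4 and 269 and 285 FPKM in control 1 and 4, against 246 and 243 FPKM in hFGF19 2 and 3 and 250 and 249 FPKM in control 2 and 3. The HSPA5 sides were apart by a small step, with a difference of 0.13 (SE 0.036). CALR, calreticulin, averaged 447 ± 18.1 FPKM in replicates 1 and 4 and 383 ± 8.11 FPKM in replicates 2 and 3. The list was not uniform, since the folding genes SDF2L1 (-0.27) and MANF (-0.14) were lower. The ER stress response element, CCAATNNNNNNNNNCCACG on either strand, lies in the 250 bases before the starts of HSPA5 (chr9:125241344-125241593, minus strand) and CALR (chr19:12938359-12938608, plus strand). Both are shown, from RefSeq build GRCh38.p14 in the direction of transcription, because they are the 2 separated genes of the list that hold it, with the element in capitals.
HSPA5: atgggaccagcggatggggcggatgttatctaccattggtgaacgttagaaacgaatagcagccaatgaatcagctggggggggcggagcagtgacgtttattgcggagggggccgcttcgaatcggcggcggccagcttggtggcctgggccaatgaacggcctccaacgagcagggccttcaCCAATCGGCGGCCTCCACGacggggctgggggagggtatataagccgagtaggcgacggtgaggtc
CALR: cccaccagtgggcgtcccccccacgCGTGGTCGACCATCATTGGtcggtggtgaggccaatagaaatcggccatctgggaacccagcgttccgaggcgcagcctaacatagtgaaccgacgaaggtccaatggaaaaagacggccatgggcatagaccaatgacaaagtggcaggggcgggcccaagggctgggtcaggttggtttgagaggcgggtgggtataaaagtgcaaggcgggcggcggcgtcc
The element stands in 0.074% of the 35116 promoters and in 7 of the 21 list members matched to one (33.3%). Here too the first share counts promoters and the second counts genes. The other 5 with the element, CANX, CRELD2, HSP90B1, PDIA6 and XBP1, overlapped between the sides.

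Glycolysis, DNA replication, lipid synthesis and lysosome lists held higher members and few or no lower ones with both treatments pooled, at medians close to 0. Of 24 glycolysis genes 7 were higher and 0 lower (median 0.041). Hexokinase HK2 averaged 20.3 ± 1.39 FPKM in replicates 1 and 4 and 14.6 ± 1.29 FPKM in replicates 2 and 3. PFKFB3, which makes the activator of phosphofructokinase, averaged 260.2 ± 11.3 FPKM in replicates 1 and 4 and 203 ± 10.2 FPKM in replicates 2 and 3. Of 41 DNA replication genes 9 were higher and 0 lower (median 0.062), among them GINS1 of the replicative helicase, at 19.4 ± 2.22 FPKM in replicates 1 and 4 and 14.6 ± 0.700 FPKM in replicates 2 and 3. Lipid synthesis had 5 higher and 1 lower of 20 fatty acid genes, and 6 higher and 2 lower of 26 cholesterol genes. ACLY, which makes cytosolic acetyl-CoA, averaged 248 ± 19.4 FPKM in replicates 1 and 4 and 192 ± 10.9 FPKM in replicates 2 and 3. MSMO1, a sterol demethylase, averaged 136 ± 11.8 FPKM in replicates 1 and 4 and 103 ± 8.39 FPKM in replicates 2 and 3. Of 38 lysosome genes 10 were higher and 1 was lower, with a median of 0.0013 that lay close to that of all genes. Within each treatment, the shares lower without overlap were 12.5% for glycolysis, 0% for DNA replication and 10.5% for lysosome genes. They were 15% for fatty acid and 19.2% for cholesterol genes, against 16% of all genes. The shares higher, in the same order, were 33.3%, 24.4%, 28.9%, 30% and 26.9%, against 15.5% of all genes.

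Ribosomal protein genes leaned to lower levels in replicates 1 and 4. Of 78 cytosolic ribosomal protein genes 77 passed the filter, of which 0 were higher, 29 were lower and 76 had a difference below 0 (median -0.22). RPL30, a protein of the large subunit, was at 117 and 121 FPKM in hFGF19 1 and 4 and 112 and 112 FPKM in control 1 and 4, against 147 and 173 FPKM in hFGF19 2 and 3 and 143 and 137 FPKM in control 2 and 3. All libraries of replicates 1 and 4 lay lower, and hFGF19 3 was the highest of all (difference -0.37, SE 0.051). RPS21, a protein of the small subunit, averaged 206 ± 30.7 FPKM in replicates 1 and 4 and 261 ± 10.9 FPKM in replicates 2 and 3. Together the 78 genes took 4.41% and 4.91% of the reads in hFGF19 1 and 4 and 4.36% and 4.61% in control 1 and 4, against 5.29% and 5.58% in hFGF19 2 and 3 and 5.13% and 4.89% in control 2 and 3. The shares overlapped by a narrow margin, with hFGF19 4 just above control 3. Ribosomal protein genes have many processed pseudogenes, so some of their reads are uncertain.

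Nuclear genes of mitochondrial proteins leaned the same way. Of 47 mitochondrial ribosomal protein genes 0 were higher and 13 were lower (median -0.17). MRPS6 averaged 6.41 ± 0.876 FPKM in replicates 1 and 4 and 9.39 ± 0.543 FPKM in replicates 2 and 3. Of 71 nuclear respiratory chain genes (73 listed) 1 was higher and 22 were lower (median -0.18). ATP5PD, a stalk subunit of ATP synthase, averaged 22.3 ± 0.764 FPKM in replicates 1 and 4 and 29.1 ± 2.88 FPKM in replicates 2 and 3. COX8A, a subunit of cytochrome c oxidase, averaged 15.7 ± 0.699 FPKM in replicates 1 and 4 and 19.96 ± 3.27 FPKM in replicates 2 and 3. The mitochondrially encoded genes were mixed, with 3 higher and 2 lower of 13. MT-ND4 averaged 3685 ± 158 FPKM in replicates 1 and 4 and 3139 ± 247 FPKM in replicates 2 and 3, whereas MT-ND5 averaged 3013 ± 299 FPKM in replicates 1 and 4 and 3484 ± 44.0 FPKM in replicates 2 and 3. Both encode subunits of complex I. Other groups also had lower members, among them 6 of 31 proteasome genes with 0 higher, and 7 of 31 antioxidant genes with 2 higher. The median gene model length was 1103 bases in the proteasome list and 1140 bases in the antioxidant list. Not every lower member was short, since the antioxidant gene SLC7A11 (difference -0.57) has a transcript of 9645 bases with 35.4% GC. PSMB6, a catalytic proteasome subunit, averaged 79.9 ± 6.17 FPKM in replicates 1 and 4 and 98.7 ± 5.52 FPKM in replicates 2 and 3. The metal-binding protein MT2A averaged 81.3 ± 5.52 FPKM in replicates 1 and 4 and 97.7 ± 3.77 FPKM in replicates 2 and 3. GSTP1, a glutathione transferase, averaged 216 ± 18.2 FPKM in replicates 1 and 4 and 261 ± 6.44 FPKM in replicates 2 and 3.

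Some genes of very large nuclear and scaffold proteins formed another part of the lower side. A long coding sequence went with both directions. In the longest of 5 bins of coding sequence length, 460 of 2330 protein-coding genes (19.7%) were higher and 469 (20.1%) lower (median 0.038). Over all protein-coding genes the shares were 13.3% and 11.5%. By length of the whole transcript, the longest bin held 391 of 2330 higher (16.8%) and 685 lower (29.4%), with a median of -0.026. Of 32 DNA damage response genes (33 listed) 12 were lower and 2 were higher, with a median of -0.14. ATM, the kinase that signals double-strand breaks, was at 127 and 158 FPKM in hFGF19 1 and 4 and 139 and 126 FPKM in control 1 and 4, against 196 and 203 FPKM in hFGF19 2 and 3 and 219 and 212 FPKM in control 2 and 3. The ranges were far apart, with a difference of -0.59 (SE 0.069). ATRX, a chromatin remodeller, averaged 75.3 ± 2.73 FPKM in replicates 1 and 4 and 112 ± 5.16 FPKM in replicates 2 and 3. BRCA2, a gene of homologous recombination repair, averaged 11.6 ± 1.75 FPKM in replicates 1 and 4 and 17.4 ± 0.132 FPKM in replicates 2 and 3. PRKDC, the catalytic subunit of DNA-dependent protein kinase, averaged 443 ± 33.9 FPKM in replicates 1 and 4 and 641 ± 72.9 FPKM in replicates 2 and 3. The mismatch repair gene PMS2 was one of the 2 higher members, with a difference of 0.33, and has close copies that may share its reads.

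Cohesin and centrosome genes also had more lower than higher members. Of 19 cohesin, condensin and SMC genes 8 were lower and 3 were higher (median -0.10). NIPBL, which loads cohesin onto DNA, averaged 72.1 ± 1.52 FPKM in replicates 1 and 4 and 99.8 ± 5.58 FPKM in replicates 2 and 3. Of 44 centrosome and cilium genes 11 were lower and 2 were higher (median -0.088). AKAP9, a centrosomal anchor of kinases, averaged 54.2 ± 3.99 FPKM in replicates 1 and 4 and 78.7 ± 2.91 FPKM in replicates 2 and 3. CEP350, a centriole-associated protein, averaged 90.9 ± 7.25 FPKM in replicates 1 and 4 and 125 ± 1.78 FPKM in replicates 2 and 3. The mitosis list was divided, with 6 lower and 3 higher of 40 and a median of -0.0065. Its lower members included CENPF, a kinetochore protein, which was at 118 and 122 FPKM in hFGF19 1 and 4 and 117 and 104 FPKM in control 1 and 4, against 167 and 162 FPKM in hFGF19 2 and 3 and 174 and 162 FPKM in control 2 and 3. CENPF showed no overlap (difference -0.53, SE 0.052). Its higher members included BIRC5, the spindle protein survivin, at 25.5 ± 2.71 FPKM in replicates 1 and 4 and 18.95 ± 1.51 FPKM in replicates 2 and 3. The 6 lower mitosis genes had a median transcript GC of 37.7% and the 3 higher ones of 52.2%, with no overlap. Of 39 genes of large ubiquitin ligases and proteases 17 were lower and 6 were higher. The median of -0.040 did not keep its sign in every setting (-0.087 to 0.011 when 1 library was left out). USP34, a deubiquitinase, averaged 161 ± 13.5 FPKM in replicates 1 and 4 and 234 ± 11.2 FPKM in replicates 2 and 3. MYCBP2, a ubiquitin ligase, averaged 61.5 ± 4.74 FPKM in replicates 1 and 4 and 86.5 ± 3.12 FPKM in replicates 2 and 3. Of 22 SR protein and CLK kinase genes, which regulate splicing, 6 were lower and 0 higher, among them TRA2A at 34.8 ± 3.06 FPKM in replicates 1 and 4 and 44.1 ± 3.93 FPKM in replicates 2 and 3.

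**Figure D3:**
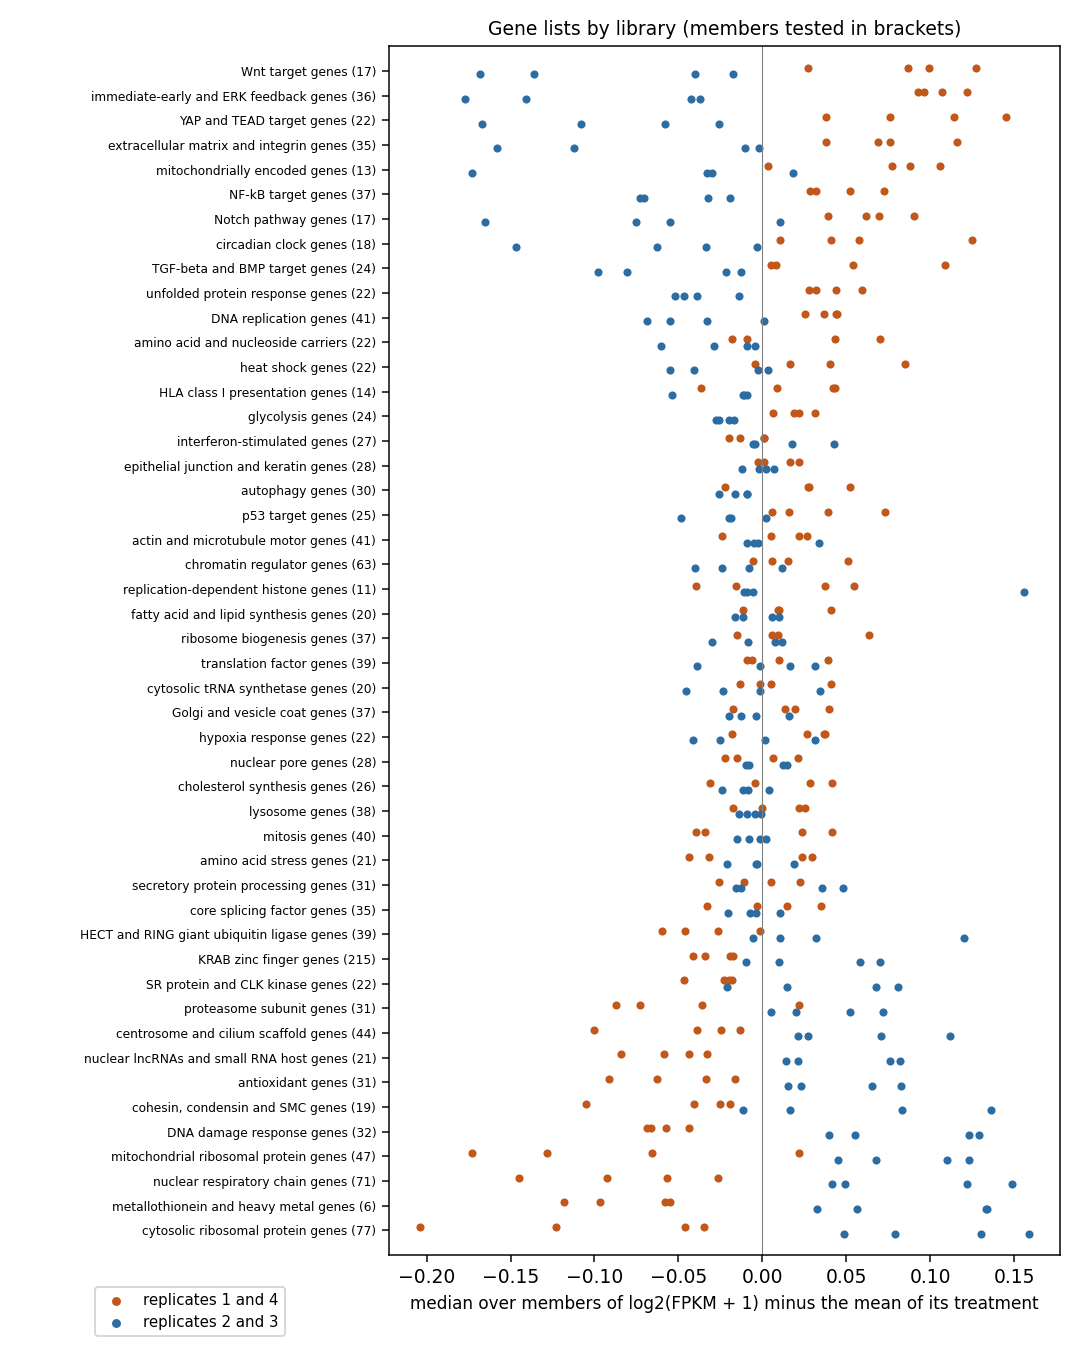
Median over the tested members of each gene list, by library, of log2(FPKM + 1) minus the mean of that gene in the library's treatment, for the gene lists, ordered by their median difference; orange marks replicates 1 and 4 and blue replicates 2 and 3. The immediate-early list lies between 0.093 and 0.12 in replicates 1 and 4 and between -0.18 and -0.037 in replicates 2 and 3, and the cytosolic ribosomal protein list lies between -0.20 and -0.035 in replicates 1 and 4 and between 0.049 and 0.16 in replicates 2 and 3.

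Genes other than protein-coding ones, among them pseudogenes, mostly overlapped between the sides and were seldom higher in replicates 1 and 4. Of 2284 such genes in GENCODE 29, 37 (1.62%) were higher and 239 (10.5%) were lower (median -0.12), so that the lower share lay near the 11.4% of all genes. Of 11648 protein-coding genes 1546 (13.3%) were higher and 1342 (11.5%) lower (median 0.0063). Among 452 long intergenic RNAs 10 were higher and 51 lower. Of 94 sense-intronic genes, which lie within introns of other genes, 0 were higher and 14 lower. FTX, a noncoding RNA of the X inactivation centre, was at 7.85 and 12.9 FPKM in hFGF19 1 and 4 and 12.1 and 8.81 FPKM in control 1 and 4, against 18.8 and 21.1 FPKM in hFGF19 2 and 3 and 21.7 and 18.9 FPKM in control 2 and 3. All 4 libraries of replicates 1 and 4 lay below the other 4 (difference -0.91, SE 0.13). LINC00342 averaged 13.7 ± 1.90 FPKM in replicates 1 and 4 and 23.0 ± 1.45 FPKM in replicates 2 and 3. BCYRN1, a short brain cytoplasmic RNA with Alu sequence, averaged 30.9 ± 4.83 FPKM in replicates 1 and 4 and 51.2 ± 8.41 FPKM in replicates 2 and 3. The rows of MIR1254-1 (29 and 63 reads over 4 libraries each) and MIR186 (57 and 104 reads) also stood lower in replicates 1 and 4, and these reads cannot be told apart from those of longer transcripts over the same bases. All noncoding types together, without the mitochondrial ones, took 1.53% and 1.6% of the reads in hFGF19 1 and 4 and 1.59% and 1.5% in control 1 and 4, against 1.66% and 1.73% in hFGF19 2 and 3 and 1.77% and 1.71% in control 2 and 3. These shares did not overlap.

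Higher and lower genes differed in base composition. The protein-coding genes that were higher in replicates 1 and 4 had a median transcript GC content of 51.9%, those that were lower 40.9%, and those that overlapped 48.9%. With protein-coding genes cut into 5 bins of equal size by GC, in the bin of lowest GC (30.2% to 41.0%), 88 of 2330 were higher and 678 lower. In bin 4 (51.9% to 58.5%), 501 of 2329 were higher and 127 lower, and in the bin of highest GC 274 of 2330 were higher and 115 lower. Across the 11648 genes the difference correlated with transcript GC at a Spearman rho of 0.26, with GC of the coding sequence at 0.29 and with gene model length at 0.15. Genes of a sample are not independent replicates, and GC and length go with many other properties. The AU-rich pentamer ATTTA occurred in the 3′ untranslated regions at a median of 1.46 per kilobase in the higher genes, 2.87 in the lower genes and 1.68 in the overlapping ones. Median GC of these regions was 46.4%, 36.4% and 43.15% in the same order. The pentamer count was not adjusted for it, and mRNA decay was not tested.

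The difference varied with length and GC jointly. In the longest of 5 bins of gene model length, genes of lowest GC had a median difference of -0.18, with 15 higher and 341 lower of 670. Those of the same length in GC bin 4 had a median of 0.18, with 150 higher and 4 lower of 352. In the shortest bin the medians were below 0 in each GC bin, from -0.086 to -0.035. Genes of the lowest GC bin took 17.3% and 17.1% of the reads in hFGF19 1 and 4 and 17.3% and 17.4% in control 1 and 4, against 18.2% and 19.6% in hFGF19 2 and 3 and 19.5% and 18.6% in control 2 and 3. The 4 libraries of replicates 1 and 4 were close together and all below the rest. Genes of the highest GC bin took 18.7% ± 0.321 of the reads in replicates 1 and 4 and 17.8% ± 0.835 in replicates 2 and 3, with overlap. Whether the composition of the libraries or of the cells' RNA differed was not tested.

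**Figure D4:**
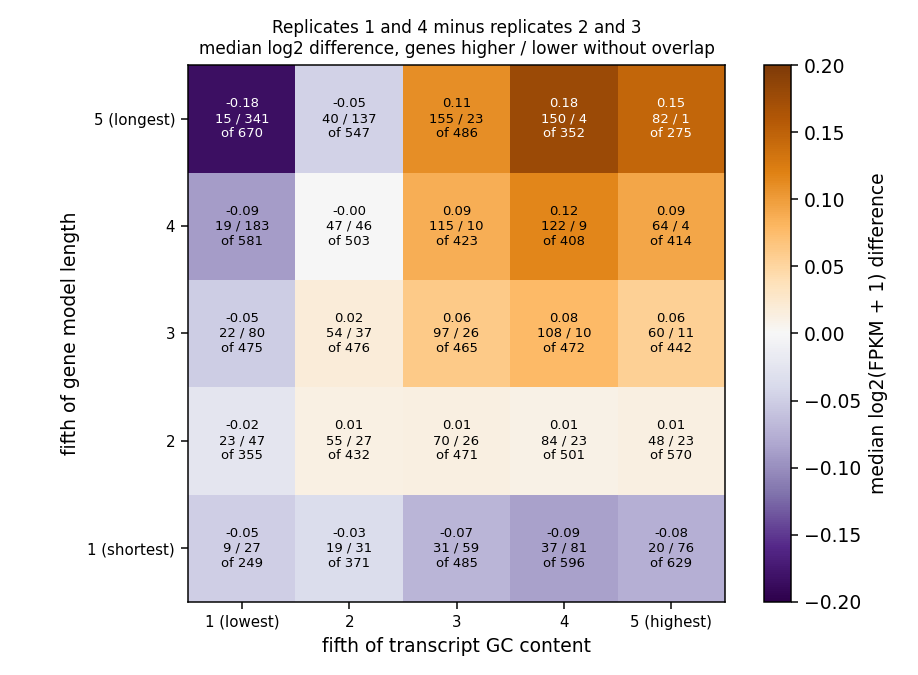
Median log2 difference, replicates 1 and 4 minus replicates 2 and 3, of protein-coding genes by bin of transcript GC content (horizontal, 5 bins of equal size) and of gene model length (vertical, 5 bins), with the number higher, the number lower and the number of genes in each cell. The longest genes go from -0.18 at the lowest GC to 0.18 in GC bin 4, and the shortest are below 0 throughout.

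The gene groups were therefore also read relative to genes in the same bins of transcript GC and gene model length. From each gene, the median difference of the protein-coding genes in its bins was taken. Gene model length is not transcript length, at 2116 against 13147 bases for ATM. The bins were also wide, the longest running from 2546 to 27174 bases. What remains after this step may therefore still go with length or GC. The cytosolic ribosomal protein median was then -0.15, and 4 of 77 members lay above the median of their bins. Medians of the mitochondrial ribosomal protein list were -0.11, of the nuclear respiratory chain list -0.11 and of the DNA damage response list -0.10. The immediate-early median was 0.11, with 30 of 36 members above, the YAP and TEAD median 0.13, with 19 of 22 above, and the Wnt median 0.16, with 15 of 17 above. NF-kB targets stood at 0.12, with 29 of 37 above. The matrix and integrin median was 0.081, the centrosome median -0.029, the cohesin median -0.034, the Notch median 0.025 and the circadian clock median 0.016. Each of these medians was nearer to 0 than the unadjusted one.

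Whether cells responded to hFGF19 alike on both sides is a question that the choice of sides did not use, since each side held both treatments. With the side as covariate, limma called 32 of 14100 genes (0.227%) for hFGF19 against control at an adjusted p below 0.05, 26 higher and 6 lower. Without the side it called 15, all of which were among the 32. With the replicate number as a block it called 21, of which 20 were among the 32, and leaving out hFGF19 1 gave 19 calls and leaving out control 4 gave 21. The side was chosen from the same values, so the spread left after removing it, and the p-values with it, may be too small. A gene with a treatment effect tends to overlap between sides that pool both treatments, and 0 of the 32 were separated in that way. Within each treatment, 8 of the 32 were higher and 4 lower in replicates 1 and 4 without overlap, against 15.5% and 16% of all genes.

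The chemokine gene CXCL1 was at 632 and 569 FPKM in hFGF19 1 and 2 and 527 and 608 FPKM in hFGF19 3 and 4, against 296 and 287 FPKM in control 1 and 2 and 291 and 291 FPKM in control 3 and 4. The treatments did not overlap. Its difference, hFGF19 minus control, was 1.0 (95% interval 0.90 to 1.1, adjusted p = 8.09e-07, limma), and 1.08 within replicates 1 and 4 and 0.92 within replicates 2 and 3. SOD2, the mitochondrial superoxide dismutase, was at 248 and 221 FPKM in hFGF19 1 and 4 and 177 and 182 FPKM in control 1 and 4, and at 200.1 and 177 FPKM in hFGF19 2 and 3 and 138 and 139 FPKM in control 2 and 3. The treatments overlapped over all 8 libraries and were apart within each side, where hFGF19 minus control was 0.38 in replicates 1 and 4 and 0.44 in replicates 2 and 3. Its adjusted p was 0.00377 with the side and 0.75 without it (limma). The complement gene C3 averaged 708 ± 81.2 FPKM with hFGF19 and 487 ± 47.6 FPKM in control, with an adjusted p of 0.000506 with the side and 0.106 without it (limma). CCL2, a monocyte chemokine, averaged 38.1 ± 3.51 FPKM with hFGF19 and 25.6 ± 2.92 FPKM in control, with an adjusted p of 0.000385 with the side and 0.0694 without it (limma). DMBT1, a mucosal scavenger receptor, averaged 23.1 ± 3.91 FPKM with hFGF19 and 16.7 ± 2.89 FPKM in control, with an adjusted p of 0.0427 with the side, 0.857 without it and 0.125 with the replicate block, which ends the call (limma).

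**Figure D5:**
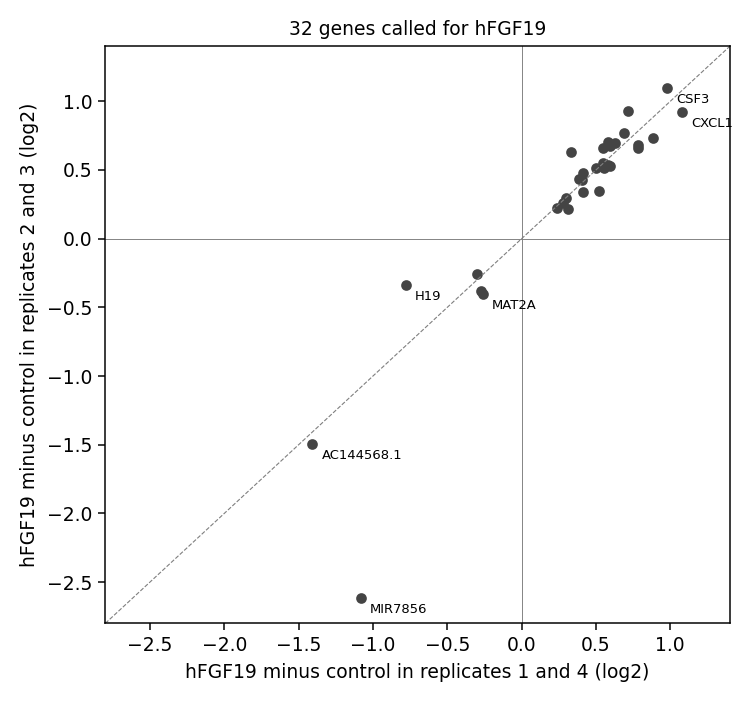
hFGF19 minus control on the log2(FPKM + 1) scale within replicates 1 and 4 (horizontal) and within replicates 2 and 3 (vertical) for the 32 genes called with the side as covariate; the dashed line marks equal values. CXCL1 lies at 1.08 and 0.92, close to the line, and MIR7856 lies farthest from the line at -1.08 and -2.62. MIR7856 rests on 2, 4, 7 and 5 reads in control 1, 2, 3 and 4. It had 1, 0, 0 and 1 reads in hFGF19 1, 2, 3 and 4 (adjusted p = 0.148 for hFGF19 against control, voom).

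The difference itself, the product of treatment and side, was called by limma in 1 of 14100 genes (0.00709%), MIR616. Its row held 4 reads in hFGF19 1, 4 in hFGF19 4, 10 in control 1 and 10 in control 4, against 13 in hFGF19 2, 13 in hFGF19 3, 6 in control 2 and 6 in control 3. The product term was -2.06 (SE 0.17, adjusted p = 0.00198, limma). It rests on these few reads, and voom on the recovered reads gave an adjusted p of 1. Leaving out hFGF19 4 gave 3 calls and leaving out control 2 gave 2. At an unadjusted p below 0.05 there were 386 genes, against 705 that make up 5% of those tested. Among the 32 genes called for hFGF19, the smallest adjusted p of the product term was 0.9999 and the smallest unadjusted p 0.00336 (limma). These 4 libraries a side may still miss moderate differences in response.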

How the data were processed

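Poly(A)-selected RNA of 8 HCT116 libraries was sequenced in pairs of reads, per the labels' protocols, whose text also mentions adipose tissue. The authors deposited gene-level FPKM values, and the submitters' processing notes name HISAT2 2.0, StringTie 1.3.0 and build hg19 without their roles. No source used here gives the strand setting. With a gene model length for each gene, 99.996% of the values above 0 were whole reads within 0.02 reads. This share is not taken as a check of the lengths. The gene model length can lie far from the GENCODE transcript length, at 2116 against 13147 bases for ATM. For other genes, such as EGR1 at 3138 bases, the lengths were equal. The recovered reads were used for depth and for voom.

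Values were taken as log2(FPKM + 1) for the 14100 genes with a mean of 1 FPKM or more. Differences and tests came from limma 3.58.1 in R 4.3.3, with Benjamini-Hochberg adjusted p-values over all 14100 genes; summaries used Python 3.11.15 with numpy 2.4.6 and pandas 2.3.3. Fold changes on this scale understate those of low genes. The side of the replicates was described without a test. hFGF19 against control was tested with the side as covariate, and the product of treatment and side in a model with both. On simulated data with 14100 genes, 80.5% of 2-fold product terms and 17.5% of 1.5-fold ones were called. The share of false calls was 11% in the 2-fold run and 2.78% in the 1.5-fold run. These simulated shares may not hold for the libraries themselves. The median gene had 430 reads per library. Gene types, transcript lengths and GC content came from GENCODE 29, which is not the authors' annotation, and only names were matched (13932 of the 14100 genes).

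Same-numbered hFGF19 and control libraries deviated together, with correlations of their deviations from the treatment means of 0.302, 0.172, 0.174 and 0.107 for numbers 1, 2, 3 and 4, all over 0.1, so a fit with the number as a block was set beside the main one. Libraries of the other number on the same side correlated at 0.173 to 0.436, so these values do not set the number apart from the side. The labels give the numbers without saying what they stand for.

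The members of the sides and the 55 gene lists were chosen with earlier results of these data known. The genes named were the 15 with the largest difference in each direction among separated genes with a symbol and a mean of 5 FPKM or more, up to 3 separated genes of each list in its main direction, and up to 10 by adjusted p for each test. Of these, the few that describe each group are printed. Other genes, among them HSPA5, SRF, ITGAV, ITGB8, SPRED1, RBMS3, PMS2, BIRC5, SDF2L1, MANF, MT-ND5, KDM5A, ASH1L, SOD2 and DMBT1, were chosen after their values were seen. The same holds for NFAT5, DGKH, CLEC2D, DUSP4, SPRY2, PRKDC, COL12A1 and the remaining integrin chains, which lie outside these rules. Items withheld for evaluation are not reported here.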

Additional observations from a re-analysis of the deposited data

Results flagged for a closer look

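Of the 192 sets of 4 libraries of a side that were examined, 5 held a library set apart from the others. Its gap to the nearest of the others, as a share of the range, passed Dixon's 95% critical value. Chance gives about 1 in 20 sets, or 9.6. On the log2(FPKM + 1) scale, PFKFB3 was at 8.12 in hFGF19 1 and between 7.996 and 8 in the other libraries of replicates 1 and 4. SCD, a fatty acid desaturase, was at 8.275 in hFGF19 4, below 8.451 to 8.467 in the others of its side. KIF20B, a mitotic kinesin, was at 3.815 in hFGF19 4, above 3.676 to 3.696 in the others of its side. MT2A was at 6.211 in control 1, below 6.39 to 6.421 in the others of its side. GINS1 was at 3.86 in hFGF19 3, below 3.982 to 4.005 in the other libraries of replicates 2 and 3.

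MIR616 was the gene whose response to hFGF19 differed between the sides by the product term, at -2.06 on the log2(FPKM + 1) scale (95% interval -2.44 to -1.68, adjusted p = 0.00198, limma). hFGF19 minus control was -1.06 in replicates 1 and 4 and 1.0 in replicates 2 and 3, from 4 to 13 reads per library. The adjusted p was 0.0135 with the replicate number as a block.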

How the results depend on the processing

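Of the 3202 genes separated between the sides, 3008 kept their call as TPM, 3092 under median-of-ratios scaling and 2881 under quantile normalization, and 0 were separated in the opposite direction; pseudocounts, filters and left-out libraries cannot reverse such a call. Since fewer libraries overlap less often by construction, 7946 genes (3711 higher, 4235 lower) were separated within the control libraries, 7270 (3649 higher, 3621 lower) within the hFGF19 libraries, and 3536 to 4603 when 1 library was left out. Of 51 gene lists 34 had a median difference above that of all genes, 32 to 38 when 1 library was left out, 28 under quantile normalization and 31 relative to bins of GC and length. Taken relative to bins of GC and length, an alternative chosen after seeing the data, 6 list medians changed sign; 4 did so under quantile normalization, 1 under median-of-ratios scaling and 1 to 6 when 1 library was left out, with 6 without control replicate 3. For hFGF19 against control, limma called 32 genes with the side as covariate, 15 without it, 21 with the replicate block that pairs libraries by number, 18 with no filter, 68 with voom on recovered reads and 19 to 27 when 1 library was left out; the replicate block also removed the call of DMBT1 (adjusted p = 0.125). CCL2 and C3 lost their calls without the side. The product term, with 1 call, had 1 with the replicate block, 0 with no filter, 0 at a mean of 5 FPKM or more and 0 with voom, and 1 to 3 when 1 library was left out. The cause of these changes was not tested. For 167 named genes, 29 values under alternatives moved by 1 SD or more, 2806 moved by less and 1 changed sign. The share of reads in the 10 genes with most reads was not run as a test of depth, since it comes from the values that chose the sides. Low rows such as MIR616 are limited by their few reads.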

Other observations

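Chromatin regulator genes, which modify or remodel nucleosomes, divided between the directions, with 18 of 63 higher and 12 lower in replicates 1 and 4 (median 0.021). The acetyltransferase gene CREBBP averaged 89.6 ± 5.53 FPKM in replicates 1 and 4 and 68.1 ± 7.76 FPKM in replicates 2 and 3 (SD, n = 4 each, as below). ARID1A, a subunit of SWI/SNF remodellers, averaged 47.2 ± 3.86 FPKM in replicates 1 and 4 and 36.7 ± 3.99 FPKM in replicates 2 and 3. Among the lower members, the histone demethylase gene KDM5A differed by -0.39 and the methyltransferase gene ASH1L by -0.44. The higher members had a median transcript GC of 54.5% and the lower ones of 41.9%. Of 22 lists with at least 3 members in each direction, 20 had the higher median GC in their higher members, for example actin and microtubule motor genes (11 higher at 55.6%, 12 lower at 43.1%). The other 2 were translation factor genes (9 higher at 51.1%, 5 lower at 60.3%) and epithelial junction and keratin genes (4 higher at 54.1%, 3 lower at 57%).

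KRAB zinc finger genes, most of which encode repressors of transposable elements, had 6 of 215 higher (2.79%) and 27 lower (12.6%), with a median of -0.052. The lower share lay near the 11.4% of all genes, and the higher share was below their 11.3%. ZNF133 averaged 10.02 ± 1.12 FPKM in replicates 1 and 4 and 14.1 ± 1.35 FPKM in replicates 2 and 3. Paralogs in this family can share reads. Core splicing factor genes had 8 of 35 higher and 3 lower with a median of -0.031, whose sign did not hold in every setting (-0.051 to 0.0067 when 1 library was left out). SF3A1 averaged 151.5 ± 3.35 FPKM in replicates 1 and 4 and 121 ± 16.1 FPKM in replicates 2 and 3, and PRPF8 averaged 340 ± 5.46 FPKM in replicates 1 and 4 and 284 ± 22.4 FPKM in replicates 2 and 3. Among genes of the circadian clock 3 of 18 were higher and 3 lower. The repressor gene BHLHE41 averaged 55.7 ± 3.17 FPKM in replicates 1 and 4 and 43.1 ± 2.39 FPKM in replicates 2 and 3. Of 24 TGF-beta and BMP target genes 5 were higher and 3 lower. Receptors were among the higher ones, with ACVR1 at 20.8 ± 0.987 FPKM in replicates 1 and 4 and 17.1 ± 1.37 FPKM in replicates 2 and 3. TGFBR2 averaged 67.5 ± 3.65 FPKM in replicates 1 and 4 and 58.9 ± 0.676 FPKM in replicates 2 and 3.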
